A study of Homo sapiens with 9 samples.

Results

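The integrin subunits and laminin chains are the genes through which a cell holds and reads its surrounding matrix, and they were followed here in SKMEL28 cells, a human melanoma line. Genes were taken by symbol, as any gene named ITGA or ITGB with a subunit number or letter or LAMA, LAMB or LAMC with a chain number. This gave 39 of the 48162 genes in the table under 38 symbols, since ITGB3 is listed as 2 overlapping genes. Of the 39, 27 were integrin and 12 laminin genes, and 30 passed the filter on low counts that left 15776 genes to test. RNA sequencing covered 9 libraries, 3 from each of 3 groups. All groups had been transduced with lentivirus and kept in puromycin at 1 ug/ml over 3 days. The shCont cells carried a hairpin against GFP, the shp16 cells a hairpin against p16, and the shp16+shATR cells hairpins against p16 and ATR. There was no group with the ATR hairpin alone, and which ATR hairpin was used is not stated. Nothing in the sources used here says that the libraries of a group came from separate cultures. For LSS mRNA a legend of the paper gives 1 experiment with 3 technical replicates, and does not say whether these were the sequenced libraries. The p-values measure the spread between the libraries, which may be technical. Whether the differences would repeat in new cultures was not tested.

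An integrin is a pair of an alpha and a beta subunit in the plasma membrane. The pair decides what is bound, be it laminin, collagen, fibronectin or a receptor on another cell, and its short tails recruit the adaptors that join it to actin. A laminin is a cross-shaped trimer of an alpha, a beta and a gamma chain, secreted into basement membranes, and the integrins with ITGA3, ITGA6 or ITGA7 are its main receptors. Melanocytes rest on such a membrane, and integrins with ITGAV or ITGB3 have long been studied in the outgrowth of melanoma.

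Library totals were 17314662 to 23588174 counts. The first shCont library stood apart from the other shCont libraries. A chi-square of its counts against replicates 2 and 3 was 66.8 and 81.3 per degree of freedom, against 5.03 between those replicates, and the first shp16 library gave 36.3 and 35.6 against 1.93. CDKN2A, the gene of p16, was at 162, 113 and 103 counts scaled to library size (CPM) in shCont, 78.1, 93.5 and 99.9 in shp16, and 82.6, 90.0 and 82.4 in shp16+shATR. The shp16 libraries were all below the shCont libraries, yet the difference did not pass the test (log2 fold change -0.48, SE 0.16, adjusted p = 0.0723, and -0.26 without the first shCont library), and counts of CDKN2A also take in the other transcripts of the gene. ATR was at 45.9, 93.5 and 96.4 CPM in shCont, 93.5, 83.4 and 85.6 in shp16, and 39.9, 40.0 and 41.0 in shp16+shATR, a log2 fold change of -1.12 between the last groups (SE 0.22, adjusted p = 0.0128) that lost its call without the first shp16 library or any 1 library of shp16+shATR. The first shCont library was thus near the knockdown level of ATR. The 9 melanocytic markers were each above 1 FPKM in every group, and none of the 7 leukocyte, 4 platelet, 3 muscle or 3 endothelial markers found was. Of the 5 fibroblast markers 1 was, LUM, at a mean of 9.77 to 12.3 FPKM in the groups.

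The plot of levels by library gives the members in order. Levels are in FPKM, reads scaled to gene length and library size, here rescaled by the TMM factors of edgeR so that libraries and genes share a scale. Among alpha subunits ITGA6 was highest, at 44.3, 73.2 and 78.5 FPKM in shCont, 109, 91.3 and 91.5 in shp16, and 115, 113 and 124 in shp16+shATR. ITGAV came next by the mean over all 9 libraries, at 19.8, 41.4 and 44.1 FPKM in shCont, 33.5, 35.9 and 33.9 in shp16, and 30.7, 32.3 and 30.8 in shp16+shATR. Within each group every ITGA6 level was above every ITGAV level, and in shCont the closest were 44.3 for ITGA6 in the first library and 44.1 for ITGAV in the last. ITGB5, a partner of ITGAV in the vitronectin receptor, was the highest beta subunit, at 119, 100 and 100 FPKM in shCont, 98.5, 105 and 111 in shp16, and 137, 142 and 140 in shp16+shATR. ITGB1, which pairs with most of the collagen, laminin and fibronectin receptors, was at 48.3, 78.1 and 82.7 FPKM in shCont, 61.1, 80.9 and 81.0 in shp16, and 68.8, 66.1 and 65.5 in shp16+shATR. ITGB3 lay between 27.3 and 44.7 FPKM over the 9 libraries and ITGB8 between 8.17 and 35.0. The first shCont library was the lowest of the 9 for both, and neither gene passed the test in any of the 3 comparisons.

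**Figure D1:**
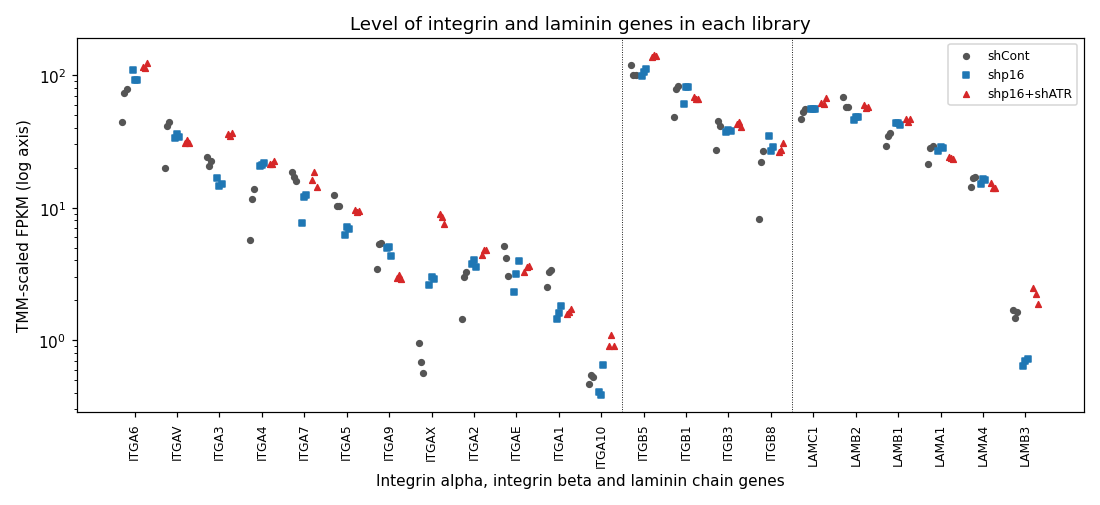
Level of each integrin and laminin gene with a mean of at least 0.5 in the 9 libraries, as TMM-scaled FPKM on a log axis, with 1 point per library, coloured by group and genes ordered by mean within alpha subunits, beta subunits and laminin chains. ITGA6, ITGB5 and LAMC1 have the highest mean over the 9 libraries in their classes, though LAMB2 is above LAMC1 in every shCont library, the first shCont point is low for ITGA4, ITGAV and ITGB8, and ITGAX rises stepwise over the groups.

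Of the laminin chains, LAMC1, LAMB2, LAMB1, LAMA1 and LAMA4 made up nearly the whole. LAMC1, the gamma chain shared by most laminins, was at 46.6, 52.4 and 55.2 FPKM in shCont, 55.2, 55.3 and 55.3 in shp16, and 61.7, 61.0 and 67.0 in shp16+shATR. LAMA1 was between 21.3 and 29.3 FPKM and LAMA4 between 13.98 and 16.98 over all libraries, and they were the abundant alpha chains. LAMA2, LAMA3 and LAMA5 stayed below 0.5 FPKM everywhere. LAMC3 had 97 counts over all 9 libraries, and LAMB4 had 25.

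Of the remaining subunits tested, ITGAE, the partner of ITGB7 on intraepithelial lymphocytes, lay between 2.32 and 5.15 FPKM, with GSG2 on the other strand of its span. ITGA2B of platelets, ITGAD and ITGB7 stayed below 0.5 FPKM, and none of these 4 passed in any comparison.

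Members that failed the filter were ITGA8, ITGA11, ITGAL, ITGAM, ITGB2, ITGB4, ITGB6, LAMB4 and the second ITGB3 entry, with 0 to 59 counts each over the 9 libraries. Among them are partners of subunits that were present. ITGB4, the partner of ITGA6 in hemidesmosomes, had 33 counts against 100316 of ITGA6. ITGB2, the beta subunit of the leukocyte integrins, had 51 counts.

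When p16 was knocked down, 11 of the 30 members tested passed an adjusted p of 0.05 in shp16 against shCont, 3 higher and 8 lower. Of all genes tested, 14.8% passed, 7.23% higher and 7.59% lower. ITGAX and ITGA4 rose, while laminin-binding ITGA3 and ITGA7, collagen-binding ITGA1, fibronectin-binding ITGA5 and the laminin chains LAMA3, LAMB3, LAMA5 and LAMB2 fell. None of the 5 beta subunits tested passed. The log2 fold changes had a median of 0.0088 over the members and of -0.016 over all genes. Without the first shCont library, 14 members passed where 25.9% of all genes did.

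ITGAX (ENSG00000140678, chr16:31366455-31394318, plus strand, gene span on GRCh37), the alpha subunit CD11c of dendritic cells and macrophages, had the largest change among the members. It was at 0.958, 0.688 and 0.563 FPKM in shCont, 2.60, 3.02 and 2.87 in shp16, and 8.95, 8.54 and 7.46 in shp16+shATR. The groups formed 3 steps without overlap. In shp16 against shCont the log2 fold change was 1.93 (SE 0.18, adjusted p = 3.78e-05, a fold of 3.82), with 3 of 3 shp16 libraries above every shCont library.

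The partner of ITGAX did not appear with it. ITGB2 was between 0.0107 and 0.148 FPKM over the 9 libraries, and its highest value was in the first shCont library. The neighbouring and related genes ITGAM and ITGAD had 59 and 67 counts in all, against 3372 of ITGAX. How reads that match more than 1 of these related genes were counted is not given in the sources used here. Of the 7 leukocyte markers, PTPRC and CD3E had 0 counts in every library and the summed level of the list was 0.567 to 1.36 FPKM in shCont, 0.622 to 0.862 in shp16 and 0.256 to 0.670 in shp16+shATR, so that the list did not rise with ITGAX. In RNA of whole cultures, more cells that carry a transcript and more transcript per cell cannot be told apart.

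ITGA4, which with ITGB1 binds VCAM1 and fibronectin, was at 5.68, 11.6 and 13.8 FPKM in shCont, 20.7, 21.0 and 21.8 in shp16, and 21.2, 21.5 and 22.5 in shp16+shATR. All knockdown libraries were above all shCont libraries, and the knockdown groups lay close together. The log2 fold change in shp16 was 1.03 (SE 0.24, adjusted p = 0.0141). It was 0.73 without the first shCont library and kept its call there. ITGA6 differed by 0.57 in the same comparison (SE 0.18, adjusted p = 0.0564) and did not pass with all libraries. Without the first shCont library its log2 fold change was 0.35, and it passed.

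The receptor subunits whose transcripts fell with p16 knockdown did so by less than ITGAX rose. ITGA1, an alpha subunit of collagen receptors, was at 2.52, 3.26 and 3.37 FPKM in shCont and at 1.43, 1.60 and 1.82 in shp16, with no overlap. Its log2 fold change was -0.91 (SE 0.14, adjusted p = 0.0015). PELO lies on the same strand within the span of ITGA1 and had 8459 counts beside 3101 of ITGA1, and reads from shared exons cannot be assigned from this table. ITGA5, the alpha subunit of the classical fibronectin receptor, was at 12.4, 10.3 and 10.3 FPKM in shCont and 6.24, 7.11 and 6.88 in shp16. The groups did not overlap, with a log2 fold change of -0.71 (SE 0.11, adjusted p = 0.00141).

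ITGA3 (ENSG00000005884, chr17:48133332-48167845, plus strand, gene span on GRCh37), which binds laminins with LAMA3 or LAMA5 through ITGB1, was at 24.1, 20.8 and 22.5 FPKM in shCont and 16.8, 14.6 and 15.1 in shp16. The 3 shp16 libraries were below every shCont library (log2 fold change -0.54, SE 0.10, adjusted p = 0.00495). ITGA7, a laminin receptor subunit best known from muscle, was at 18.5, 17.1 and 15.8 FPKM in shCont and 7.61, 11.998 and 12.4 in shp16. The first shp16 library was lowest (log2 fold change -0.68, SE 0.17, adjusted p = 0.0233), and the call was lost when it or the second shCont library was left out, at log2 fold changes of -0.49 and -0.68.

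Among the laminin chains of low level, LAMB3, LAMA3 and LAMA5 fell. LAMB3 (ENSG00000196878, chr1:209788215-209825811, minus strand, gene span on GRCh37), which forms the epithelial laminin of the skin together with LAMA3, was at 1.69, 1.48 and 1.62 FPKM in shCont and 0.639, 0.694 and 0.725 in shp16. Its groups were far apart for their spread, with a log2 fold change of -1.22 (SE 0.17, adjusted p = 0.000566). LAMA3 was at 0.319, 0.434 and 0.422 FPKM in shCont and 0.122, 0.173 and 0.155 in shp16 (log2 fold change -1.37, SE 0.24, adjusted p = 0.0031). LAMA5 was at 0.286, 0.369 and 0.267 FPKM in shCont and 0.109, 0.145 and 0.179 in shp16 (log2 fold change -1.08, SE 0.24, adjusted p = 0.013), and its call was lost without the second shCont library, at -0.93. Both chains were low, with 499 and 413 counts over all libraries, and LAMA5 overlaps ADRM1 on the other strand, which had 12515 counts. The library kit was not one that keeps the strand, so that reads of the overlap cannot be told apart.

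The abundant beta chains moved in opposite directions by small amounts. LAMB1 was at 29.1, 34.8 and 36.9 FPKM in shCont and 43.7, 43.6 and 41.9 in shp16, and LAMB2 at 67.9, 58.0 and 57.7 against 45.5, 48.5 and 48.1. Neither pair of groups overlapped. The log2 fold change was 0.36 for LAMB1 (SE 0.11, adjusted p = 0.0455) and -0.37 for LAMB2 (SE 0.10, adjusted p = 0.0323). These were the least stable calls of the comparison, kept in 5 and 10 of 21 alternatives, with adjusted p-values reaching 0.216 and 0.198. Both were lost without the second shCont library and without any 1 library of shp16 or shp16+shATR. LAMB1 overlaps DLD on the other strand, with 27802 counts against 42927.

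**Figure D2:**
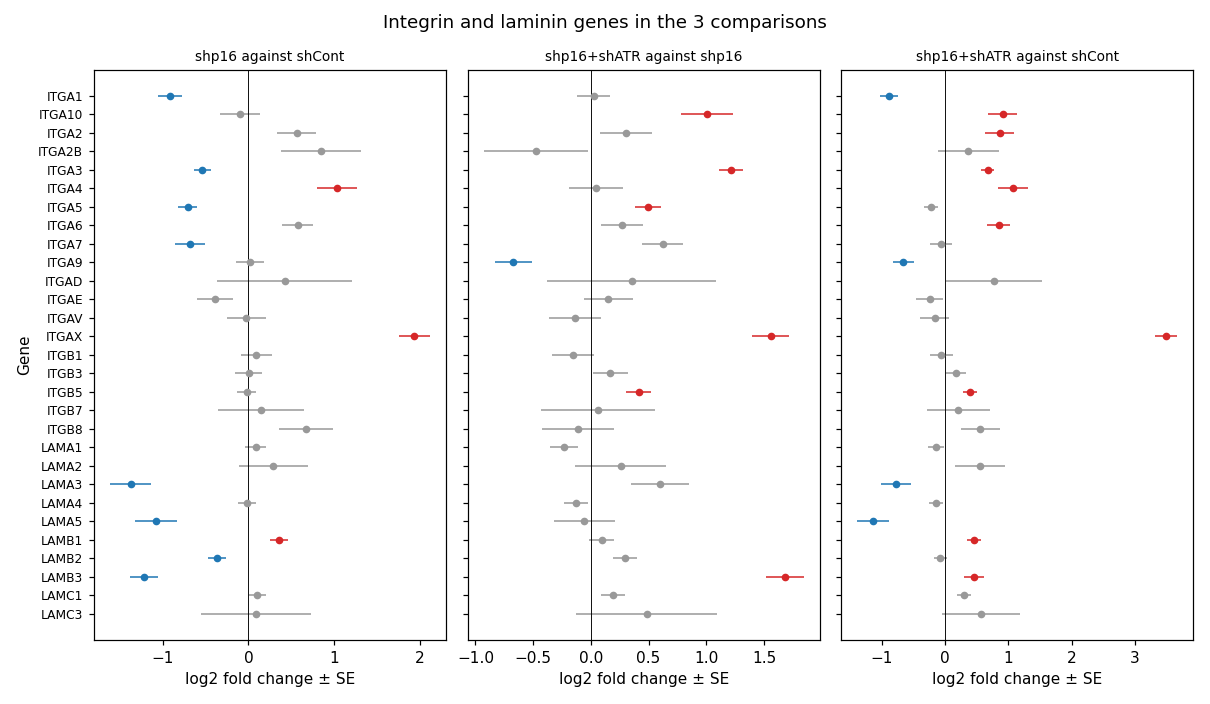
The log2 fold change of 29 of the 30 tested integrin and laminin genes in each of the 3 comparisons, with bars of 1 SE from the fit over 9 libraries, in red where a gene passed as higher, in blue as lower and in grey where it did not pass. ITGAX is to the right of 0 in all 3 panels, and ITGA3 and LAMB3 are to the left in the first and to the right in the others.

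Adding the ATR hairpin to p16 knockdown was compared as shp16+shATR against shp16. Of the 30 members tested, 7 passed, 6 higher and 1 lower, where 6.22% of all genes passed, 2.73% higher and 3.49% lower. LAMB3, ITGAX, ITGA3, ITGA10, ITGA5 and ITGB5 rose and ITGA9 fell. The median log2 fold change was 0.19 over the members and 0.0021 over all genes. The comparisons share the shp16 libraries, so that a chance deviation of these libraries moves both in opposite directions.

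LAMB3 was at 2.49, 2.23 and 1.88 FPKM in shp16+shATR, above every library of shp16 and also of shCont. Against shp16 the log2 fold change was 1.68 (SE 0.16, adjusted p = 0.000353), a fold of 3.20. LAMA3 did not pass here, at 0.281, 0.187 and 0.221 FPKM (log2 fold change 0.60, SE 0.25, adjusted p = 0.207). The plot of the named genes shows LAMA3 in shp16+shATR between the other groups.

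ITGA3 was at 36.3, 34.9 and 36.3 FPKM in shp16+shATR, more than in any shp16 or shCont library. The log2 fold change against shp16 was 1.21 (SE 0.10, adjusted p = 0.000148), a fold of 2.32. ITGAX rose again, by a log2 fold change of 1.56 (SE 0.16, adjusted p = 0.000458). These 3 genes kept their call in all 20 alternatives, with log2 fold changes of 0.92 to 1.78 for LAMB3, 1.17 to 1.27 for ITGA3 and 1.29 to 1.63 for ITGAX.

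The other 4 calls were less firm. ITGA5 was at 9.67, 9.33 and 9.47 FPKM in shp16+shATR, above shp16 (log2 fold change 0.49, SE 0.11, adjusted p = 0.0229) and below every shCont library. ITGB5 rose by a log2 fold change of 0.41 (SE 0.11, adjusted p = 0.045). ITGA9, which binds tenascin and osteopontin with ITGB1, was at 4.97, 5.03 and 4.29 FPKM in shp16 and 2.97, 3.08 and 2.91 in shp16+shATR (log2 fold change -0.67, SE 0.16, adjusted p = 0.0323). ITGA10, a collagen-binding subunit of cartilage, was at 0.404, 0.387 and 0.648 FPKM in shp16 and 0.898, 1.09 and 0.905 in shp16+shATR (log2 fold change 1.01, SE 0.23, adjusted p = 0.023). None of these 4 pairs of groups overlapped, but neither did those of members that did not pass, such as ITGA2, ITGA6 and LAMC1. The share of all genes without overlap was not computed. The calls of ITGA5, ITGB5 and ITGA9 were each lost on leaving out any 1 library of shp16 or shp16+shATR, and that of ITGA10 on leaving out any of these but the third of shp16. The call of ITGB5 was also lost without the second or the third shCont library. The highest adjusted p-values over the alternatives were 0.109, 0.178, 0.192 and 0.124, and all kept their sign.

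Without the first shCont library, which is in neither group but takes part in the common estimate of the spread, 12 members passed, 10 higher and 2 lower, where 19.9% of all genes did. ITGA7, at 16.2, 18.7 and 14.4 FPKM in shp16+shATR, was among those added. With all 9 libraries its log2 fold change against shp16 was 0.62 (SE 0.17, adjusted p = 0.0584).

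**Figure D3:**
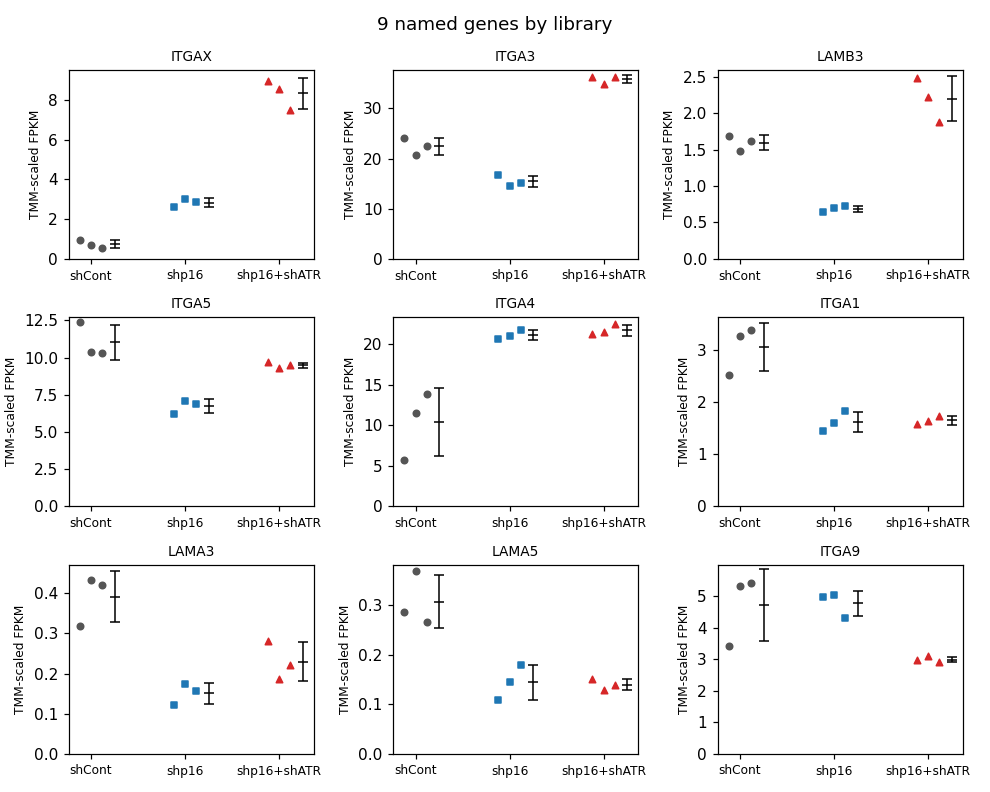
TMM-scaled FPKM of 9 named genes in each library, with replicates 1 to 3 from left to right in each group and the mean with 1 SD beside them, on axes that start at 0. ITGAX climbs over the groups, ITGA3 and LAMB3 dip in shp16 and exceed shCont in shp16+shATR, ITGA5 comes back in part, and ITGA1 and ITGA4 are alike in both knockdown groups.

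Against shCont, shp16+shATR cells had 13 members called, 9 higher and 4 lower, beside 23.6% of all genes, 10.9% higher and 12.7% lower. ITGAX was 11.2-fold higher (log2 fold change 3.49, SE 0.18, adjusted p = 4.14e-07). ITGA4, ITGA10, ITGA2, ITGA6, ITGA3, LAMB3, LAMB1 and ITGB5 rose by log2 fold changes of 1.07, 0.91, 0.86, 0.84, 0.67, 0.46, 0.45 and 0.39, with adjusted p-values of 0.000728 to 0.0494. LAMA5, ITGA1, LAMA3 and ITGA9 fell by log2 fold changes of 1.14, 0.89, 0.77 and 0.66, with adjusted p-values of 0.00104 to 0.0325. The median log2 fold change was 0.25 over the members and -0.018 over all genes. Without the first shCont library 18 members passed, beside 33.3% of all genes.

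Transcripts of the laminin-binding subunits ITGA6 and ITGA3 were thus both higher in shp16+shATR than in shCont cells. These calls held in all 20 alternatives, as did those of ITGAX, ITGA4 and ITGA1. The third laminin-binding subunit, ITGA7, and the partner ITGB1 did not pass, at log2 fold changes of -0.061 and -0.060. ITGA2, a collagen receptor subunit, was at 1.45, 2.99 and 3.26 FPKM in shCont, 3.73, 4.04 and 3.58 in shp16, and 4.40, 4.80 and 4.78 in shp16+shATR. Its log2 fold change was 0.57 without the first shCont library, against 0.86 with it. LAMB3 kept its call in 6 of 20 alternatives and LAMA3 in 12. Single libraries decided several calls of this comparison. ITGB5 lost its call without any 1 library of shp16+shATR or without the second or the third of shCont, ITGA9 without the first or the third of shp16+shATR, ITGA10 without the second, ITGA2 without the second or the third, and LAMB1 without the first. LAMA3 lost it without the second or the third library of shp16+shATR or of shCont. LAMB3 lost it without the first or second of shp16+shATR, the second or the third of shCont, or the second or the third of shp16.

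Some values depended on the first shCont library. In that library ITGB8 was at 0.334, ITGA4 at 0.448, ITGAV at 0.462, ITGA2 at 0.465, ITGA6 at 0.584 and ITGB1 at 0.600 of the mean of the other shCont libraries. ITGAV had a log2 fold change of -0.026 in shp16 with all libraries and -0.32 without that one. In shp16+shATR against shCont it was -0.17 and -0.46. ITGAV passed in 2 of the 21 and 2 of the 20 alternatives, those without this library. ITGB8, which with ITGAV activates TGF-beta, was at 8.17, 22.2 and 26.7 FPKM in shCont and 35.0, 27.0 and 28.6 in shp16, where the groups did not overlap but the test did not pass (log2 fold change 0.67, SE 0.31, adjusted p = 0.176).

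The makeup of each class was followed as the share of a gene in the summed FPKM of its class within a library, a measure that no scaling between libraries can move. Tests were run only for the gene with the largest mean share of each class in shCont, chosen from these same libraries. ITGA6 took 36.3% ± 3.91 of alpha subunit FPKM in shCont, against 47.9% ± 3.57 once p16 was knocked down and 46.0% ± 1.67 after both knockdowns (SD, n = 3). The shares of the knockdown groups were above those of shCont in every library, with p = 0.1 in a two-sided exact permutation test for each, the smallest that 3 against 3 libraries allow. ITGB5 took 46.4% ± 10.6, 42.4% ± 0.575 and 50.4% ± 0.530 of beta subunit FPKM, where the first shCont library held 58.6%. Between shp16 and shp16+shATR the share of ITGB5 did not overlap (exact permutation p = 0.1), and against shCont it did (exact permutation p = 1 for shp16 and 0.4 for shp16+shATR). LAMB2 took 32.2% ± 4.50 of laminin FPKM in shCont, less in shp16 at 24.8% ± 0.483, and 27.9% ± 0.492 in shp16+shATR, without overlap between any of the groups (exact permutation p = 0.1 for each).

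Shares of other genes are given as description. ITGA3 held 13.1% ± 3.66 of alpha subunit FPKM in shCont, 7.62% ± 0.341 after p16 knockdown and 14.1% ± 0.321 with the ATR hairpin added. ITGAV held 19.2% ± 4.36, 16.99% ± 1.01 and 12.3% ± 0.464. LAMB1 held 17.5% ± 1.35 of laminin FPKM in shCont, and 22.6% ± 0.707 and 22.1% ± 0.0917 in the knockdown groups, so that LAMB1 and LAMB2 lay closer together in the knockdown groups than in shCont.

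**Figure D4:**
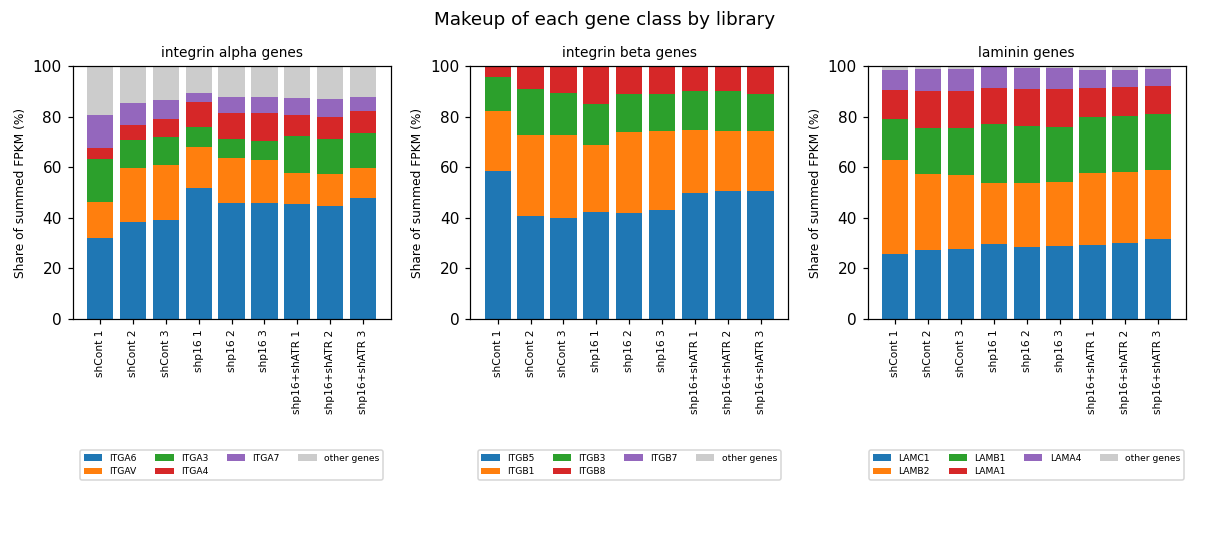
Share of the summed FPKM of integrin alpha, integrin beta and laminin genes taken by the 5 leading genes of each class and by all other genes, in percent, with 1 bar per library. The ITGA6 part is larger in the 6 knockdown libraries than in the 3 shCont libraries, and the first shCont library has the largest ITGB5 and LAMB2 parts.

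Members that moved together can be looked at in their start regions. ITGA5 and LAMB3 are shown because both fell in shp16 and rose again in shp16+shATR. RefSeq windows of 250 bases before to 50 after a gene start were at hand for 26 of the 38 symbols, in 33 windows. None was at hand for ITGA3, which also fell in shp16 and rose in shp16+shATR. Capitals mark the GC box GGGCGG or the AP-1 site TGANTCA, read on both strands. The windows are those of ITGA5, chr12:54419217-54419516 (GRCh38.p14, minus strand), and of the first of 3 starts listed for LAMB3, chr1:209652376-209652675 (GRCh38.p14, minus strand), printed 5′ to 3′ along the gene.
ITGA5: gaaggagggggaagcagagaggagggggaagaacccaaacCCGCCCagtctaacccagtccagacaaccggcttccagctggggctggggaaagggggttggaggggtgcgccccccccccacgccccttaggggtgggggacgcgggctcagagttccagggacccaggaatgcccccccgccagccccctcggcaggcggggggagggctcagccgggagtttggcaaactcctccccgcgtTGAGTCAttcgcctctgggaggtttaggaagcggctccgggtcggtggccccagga
LAMB3: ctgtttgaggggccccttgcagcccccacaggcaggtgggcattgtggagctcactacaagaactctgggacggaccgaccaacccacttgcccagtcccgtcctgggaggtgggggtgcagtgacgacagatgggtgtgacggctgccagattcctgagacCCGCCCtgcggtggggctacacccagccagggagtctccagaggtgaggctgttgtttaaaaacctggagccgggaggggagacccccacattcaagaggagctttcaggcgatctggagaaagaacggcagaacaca
The ITGA5 window held 1 AP-1 site and 1 GC box, and the LAMB3 window 1 GC box. Among the members, 3 of 33 windows held an AP-1 site, in ITGA5, LAMA3 and another start of LAMB3, and 19 held a GC box. Of all 35116 windows, 7.71% held an AP-1 site and 45.0% a GC box. The E-box CACGTG was in 1 member window, that of ITGA6, and in 7.26% of all. These are matches of letters and not evidence of binding.

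Genes around the integrins were followed in 5 lists of partners. Their counts are to be read beside the shares of all genes called, in shp16 against shCont 7.23% higher and 7.59% lower. There, 5 of 22 tested focal adhesion adaptors rose and 0 fell. FLNA, which ties integrin tails to actin, was at 239 ± 4.59 FPKM in shCont and 408 ± 58.8 in shp16 (SD, n = 3), a log2 fold change of 0.77 (SE 0.13, adjusted p = 0.00205). TNS3, a tensin, and FERMT2, a kindlin that activates integrins, rose by 0.87 (SE 0.13, adjusted p = 0.00115) and 0.56 (SE 0.13, adjusted p = 0.014). The median over all 22 was -0.0017. Of 14 tested regulators of integrin activation and traffic, 0 rose and 1 fell, DOK1, which competes with talin for beta subunit tails (log2 fold change -0.81, SE 0.21, adjusted p = 0.0221).

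Of 11 tested integrin ligands, 2 rose and 3 fell in shp16. SPP1, osteopontin, rose from 93.5 ± 6.68 to 175 ± 41.1 FPKM (log2 fold change 0.90, SE 0.16, adjusted p = 0.00306), and THBS1, thrombospondin, rose by 0.56 at a level below 1 FPKM (SE 0.17, adjusted p = 0.0464). CTGF, a matricellular ligand, fell from 23.9 ± 2.31 to 10.1 ± 0.935 FPKM (log2 fold change -1.24, SE 0.12, adjusted p = 3.78e-05). Of 11 tested basement membrane partners and laminin receptors, 3 rose and 2 fell. HSPG2, the proteoglycan perlecan, and AGRN, agrin, both of which bind laminins, rose by 1.09 (SE 0.15, adjusted p = 0.00057) and 0.71 (SE 0.13, adjusted p = 0.00341). Of 15 membrane partners, 3 rose and 1 fell. CD9, a tetraspanin, and SDC4 rose by 0.82 (SE 0.13, adjusted p = 0.00168) and 0.62 (SE 0.11, adjusted p = 0.00315), and SDC1, the syndecan of epithelia, fell by 1.68 (SE 0.16, adjusted p = 4.69e-05).

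In shp16+shATR against shp16, where 2.73% of all genes were called higher and 3.49% lower, 3 of 11 integrin ligands rose and 0 fell. THBS1 rose by 1.35 (SE 0.16, adjusted p = 0.00103), CTGF by 0.68 (SE 0.12, adjusted p = 0.00572) and ICAM1 by 0.46 (SE 0.09, adjusted p = 0.013). ICAM1 is a ligand of the leukocyte integrins and was at 41.6 ± 1.12 FPKM in shp16 and 57.1 ± 1.30 in shp16+shATR. CTGF reached 16.2 ± 0.571 FPKM, between shp16 and shCont. Among basement membrane partners, 2 rose and 1 fell: SPARC rose from 406 ± 20.7 to 616 ± 24.04 FPKM (log2 fold change 0.60, SE 0.12, adjusted p = 0.0119), AGRN rose further by 0.77 (SE 0.13, adjusted p = 0.00512), and DAG1, dystroglycan, a laminin receptor outside the integrin family, fell from 62.5 ± 1.72 to 33.7 ± 0.987 FPKM (log2 fold change -0.89, SE 0.10, adjusted p = 0.000749). TNS3 was the 1 focal adhesion adaptor that changed and fell by 0.58 (SE 0.13, adjusted p = 0.0227). SDC1 fell again, by 0.88 (SE 0.17, adjusted p = 0.0117), and RAB21, which carries integrins through endosomes, rose by 0.61 (SE 0.13, adjusted p = 0.017).

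Against shCont, where 10.9% of all genes were called higher and 12.7% lower, shp16+shATR cells had 3 focal adhesion adaptors higher and 6 lower of 22. Of the integrin ligands 3 were higher and 1 lower of 11, of the basement membrane partners 4 and 2 of 11, of the membrane partners 6 and 1 of 15, and of the regulators 1 and 1 of 14.

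The epithelial markers moved with p16 knockdown too. The summed level of CDH1, KRT5, KRT14 and EPCAM was 0.593 to 0.934 FPKM in shCont, 5.81 to 6.43 in shp16 and 5.78 to 7.17 in shp16+shATR, with CDH1 at a mean of 0.491, 3.66 and 4.45 FPKM. EPCAM did not take part, at 0.203, 0.115 and 0.202 FPKM. LAMA3 and LAMB3, chains of epithelial laminin, fell in shp16 while these markers were higher. Their part in the integrin and laminin results was not tested.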

How the data were processed

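RNA of SKMEL28 cells was sequenced at Novogene from libraries made with a NEBNext Ultra 2 kit. The authors deposited whole read counts per gene, not normalized, and FPKM values, which equal each count divided by gene length and library total (largest relative difference 4.22e-07). Per the labels, reads were processed with STAR 2.6.1. The counting program is not given in the sources used here. The submitters' notes name GRCh38, yet 0 of 39 member starts match GENCODE 29 on GRCh38, and the gene spans printed are those of GRCh37 (chromosome 1 gene ends reach 249231242). The 3 shp16+shATR count columns share a name and were matched to FPKM replicates 1, 2 and 3 by their values.

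From the counts, edgeR 4.0.16 in R 4.3.3 (filterByExpr, TMM, quasi-likelihood test, 1 coefficient per group, all 9 libraries) gave log2 fold changes, with Benjamini-Hochberg adjustment over 15776 genes and a threshold of 0.05. SE is the absolute log2 fold change divided by the root of the F statistic. The script was tested on simulated data. Members are all genes that match the symbol rule; from each companion list up to 3 genes with the largest change among those called, at a mean CPM of at least 5 and without overlap of groups, were named. Of the members tested, 1 is counted but not reported here by name. The members and lists were chosen with earlier results of these data known. Alternatives were DESeq2 1.42.0, other scalings and filters, limma 3.58.1 on log2 FPKM with 1 or 0.1 added, a replicate block, stricter thresholds and leaving out libraries. Deviations of same-numbered libraries from their group means had correlations of -0.303 to 0.289, of mixed sign. Numbers were not taken as pairs in the main fit, though 3 libraries per group cannot settle whether they are. Precision is limited by counts, which run from 0 to 100316 per member over the 9 libraries, and by 3 libraries per group.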

Additional observations from a re-analysis of the deposited data

How the results depend on the processing

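The 45 gene comparisons followed were those of members with an unadjusted p under 0.1 and of both knockdown targets in shp16+shATR against shCont. A shared set of refits, 20 or 21 per comparison, gave 915 values for them. The sign was kept in all of these values. In 754 the call stayed as it was, in 131 it was lost and in 30 it was gained. Of the other 47 member comparisons, 25 changed sign somewhere and 16 were called in at least 1 alternative. Only 2 of the 47 were called in an alternative that kept the first shCont library.

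Counts of members called moved most, and they are to be read beside the share of all genes called. That share was 14.8%, 6.22% and 23.6% in the 3 comparisons with all libraries, and 25.9%, 19.9% and 33.3% without the first shCont library. It is not given here for the other settings, so the counts below describe the settings and not a trait of the members or partners. Leaving out 1 library gave 7 to 14 members in shp16 against shCont, 3 to 12 in shp16+shATR against shp16 and 8 to 18 in shp16+shATR against shCont. For the partner lists this gave 11 to 28, 4 to 27 and 17 to 35 genes, where all libraries gave 20, 9 and 28. With both first libraries of shCont and shp16 left out, a choice made after seeing the data, members numbered 16, 17 and 21, and partner genes 35, 35 and 45. At an adjusted p of 0.01, members were 6, 3 and 6 and partners 9, 4 and 15. At a log2 fold change of at least 1 they were 5, 4 and 3, and 6, 1 and 7. With the 2 groups alone, members numbered 7 and 11 in the first pair of comparisons, and partners 9 and 25. limma on log2(FPKM + 1) without a filter called 7, 3 and 8 members. DESeq2 called 16 partners in shp16+shATR against shp16.

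The replicate block on counts called 4 members and 4 partners in shp16 against shCont, and limma with a replicate block 6 members there, and 3 members and 5 partners in shp16+shATR against shp16. Whether libraries of the same number belong together is not stated and cannot be settled with 3 libraries per group. The calls lost this way therefore stand as a limit of these results.

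The CDKN2A difference passed under DESeq2 (-0.47), without a filter (-0.46) and without the third shCont library (-0.60), and ranged from -0.60 to -0.26 without 1 library. The ATR difference failed in limma on log2(FPKM + 1) without a filter and with the replicate block (-0.97 in both), and ranged from -1.15 to -1.07 without 1 library. It failed without the first shp16 library (adjusted p = 0.0554) and without library 1, 2 or 3 of shp16+shATR (0.0702, 0.0707 and 0.0577), over a range of 3.66e-12 to 0.103 in all alternatives. Shares of summed counts, not per length, put ITGA6 at 47.8% in shp16+shATR, ITGB5 at 43.2% in shp16 and 51.3% in shp16+shATR, and LAMB2 at 26.1%, 19.8% and 22.7% in the 3 groups. The cause of these changes was not tested.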
